A study of Homo sapiens with 9 samples.

Results

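The mitochondrial ribosomal proteins are encoded by nuclear genes named MRPL for the large subunit and MRPS for the small subunit. All genes whose symbol is MRPL or MRPS followed by a number, with or without a final letter, were taken, which gave 76 of the 13052 genes in the authors' deposited tables: 48 MRPL genes and 28 MRPS genes. RefSeq holds 77 symbols of this form, and 2 of them, MRPL45 and MRPS21, were not analysed here. The study sequenced poly(A) RNA of MCF10A, a non-transformed human mammary epithelial line grown in medium with horse serum, EGF, cholera toxin, insulin and hydrocortisone. It had 3 libraries of XRCC1-KO cells (genotype XRCC1-knockout), 3 of APE1-KO cells (genotype APE1-knockout) and 3 of Control-KO cells, which are labelled WT for genotype and express Cas9; both knockout groups were derived from these Cas9-expressing cells. The deposited tables give 1 value per gene and comparison, so values per library are not analysed here. The labels say neither whether a knockout group is 1 clone or a pool nor whether libraries are separate cultures; p-values then cover only the spread between libraries, which may be technical.

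Mitochondrial ribosomes translate the few messenger RNAs of mitochondrial DNA, all of which encode subunits of the respiratory chain and ATP synthase. Their ribosomal RNAs come from mitochondrial DNA, but every protein is made in the cytosol and imported, and many of these proteins have no counterpart in bacterial ribosomes. XRCC1 is a scaffold of single-strand break repair, and APE1, encoded by APEX1, cuts DNA at abasic sites; APE1 also acts in mitochondria. The comparisons ask how the transcripts of this translation machinery stood in cells labelled as a knockout of XRCC1 or of APE1, each alone. No protein level is analysed here.

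APEX1 stood at 35.4% of its Control-KO level in APE1-KO cells, from the authors' deposited log2 fold change of -1.5 (adjusted p = 7.17e-08), while XRCC1 stood at 0.14 in their table for XRCC1-KO (p = 0.235); a knockout need not lower the transcript, so directions for XRCC1-KO rest on the label. Listed were all 7 basal or general epithelial markers looked for (KRT5, KRT14, KRT17, TP63, ITGB4, CDH1 and EPCAM) and all 4 luminal ones. KRT17 had a mean log2 CPM of 11, CDH1 of 8.26 and EPCAM, the lowest of these 7, of 6.34. The 4 luminal ones had 8.88 (KRT18), 7.73 (KRT8), 6.62 (ESR1) and 3.05 (GATA3). Of 6 markers of leukocytes, endothelium and fibroblasts, COL1A1 alone was listed (4.08). That the cells are MCF10A rests on the labels. The depth of each library is unknown here. In bulk RNA, fewer mitochondria or cells of a kind and less RNA per cell cannot be told apart.

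Promoter windows from RefSeq (build GRCh38.p14, 250 bases before to 50 after a start site, the first listed window of a gene) were found for 67 of the 76 genes. Known binding letters were searched in them on both strands: CCGGAAG for ETS factors such as GABPA, AAGATGGC for YY1, GCGCA and GCGC with any 1 base between them for NRF1, GGGCGG for SP1 and TATAAA for the TATA box. ETS letters were in 28 of the 67 windows (41.8%), against 19.2% of the 10259 windows of genes in the deposited tables and 10.7% of all 27305 windows. YY1 letters were in 19 (28.4%), against 5.35% of the windows of table genes and 3.03% of all windows; these letters contain ATG and can lie at the start codon when it is close to the start site. NRF1 letters were in 7 (10.4%, against 11.6% and 6.28%), SP1 letters in 41 (61.2%, against 70.4% and 44.6%) and TATA letters in 2 (2.99%, against 5.7% and 12%). Matches of different motifs overlapped in 1 of the 67 windows. By subunit, ETS letters were in 17 of 41 MRPL windows and 11 of 26 MRPS windows, and YY1 letters in 11 and 8. A match describes letters in a window and shows no binding.

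The stretches printed here belong to the genes with an unadjusted p under 0.05 in XRCC1-KO cells and then to the 4 genes with the lowest log2 fold change there, as far as a window was found. Each runs from 150 bases before to 30 after the start site, 5′ to 3′, with whole ETS, YY1 and NRF1 matches in capitals. The first set is MRPL52 (chr14:22829737-22829916, plus strand), MRPL49 (chr11:65122033-65122212, plus strand), MRPL33 (chr2:27771569-27771748, plus strand), MRPL40 (chr22:19432395-19432574, plus strand), MRPL47 (chr3:179604609-179604788, minus strand) and MRPL20 (chr1:1407264-1407443, minus strand).
MRPL52: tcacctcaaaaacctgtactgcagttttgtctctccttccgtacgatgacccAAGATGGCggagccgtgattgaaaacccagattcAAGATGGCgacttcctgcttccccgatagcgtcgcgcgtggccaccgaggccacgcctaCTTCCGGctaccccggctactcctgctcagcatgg
MRPL49: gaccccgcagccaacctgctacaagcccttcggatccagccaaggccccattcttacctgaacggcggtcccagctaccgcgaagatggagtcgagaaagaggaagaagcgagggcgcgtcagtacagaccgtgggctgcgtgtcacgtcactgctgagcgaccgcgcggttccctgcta
MRPL33: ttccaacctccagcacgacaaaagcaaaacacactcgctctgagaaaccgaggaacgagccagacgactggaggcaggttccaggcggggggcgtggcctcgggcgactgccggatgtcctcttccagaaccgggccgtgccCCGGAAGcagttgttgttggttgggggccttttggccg
MRPL40: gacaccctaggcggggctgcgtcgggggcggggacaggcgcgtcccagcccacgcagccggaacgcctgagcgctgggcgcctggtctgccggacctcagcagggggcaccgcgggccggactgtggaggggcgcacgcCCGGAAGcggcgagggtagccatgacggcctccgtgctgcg
MRPL47: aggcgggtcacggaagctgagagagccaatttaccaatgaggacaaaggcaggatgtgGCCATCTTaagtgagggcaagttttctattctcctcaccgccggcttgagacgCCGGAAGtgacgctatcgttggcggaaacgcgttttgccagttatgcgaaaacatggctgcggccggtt
MRPL20: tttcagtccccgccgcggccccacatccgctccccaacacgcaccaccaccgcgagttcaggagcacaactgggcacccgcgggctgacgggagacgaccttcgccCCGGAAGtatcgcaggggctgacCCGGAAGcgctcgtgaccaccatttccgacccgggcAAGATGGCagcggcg

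The second set is MRPL30 (chr2:99181034-99181213, plus strand), MRPL50 (chr9:101398589-101398768, minus strand), MRPL19 (chr2:75646633-75646812, plus strand) and MRPS27 (chr5:72320211-72320390, minus strand).
MRPL30: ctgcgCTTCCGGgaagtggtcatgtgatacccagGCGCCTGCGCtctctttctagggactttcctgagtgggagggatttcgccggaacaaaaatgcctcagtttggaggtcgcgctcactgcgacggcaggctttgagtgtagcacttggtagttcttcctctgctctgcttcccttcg
MRPL50: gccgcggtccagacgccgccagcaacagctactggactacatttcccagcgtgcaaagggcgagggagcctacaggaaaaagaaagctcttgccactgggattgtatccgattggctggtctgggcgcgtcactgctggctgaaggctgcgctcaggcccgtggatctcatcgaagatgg
MRPL19: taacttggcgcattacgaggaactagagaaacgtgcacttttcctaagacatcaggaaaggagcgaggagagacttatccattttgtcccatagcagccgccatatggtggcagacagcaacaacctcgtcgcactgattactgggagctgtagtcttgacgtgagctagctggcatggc
MRPS27: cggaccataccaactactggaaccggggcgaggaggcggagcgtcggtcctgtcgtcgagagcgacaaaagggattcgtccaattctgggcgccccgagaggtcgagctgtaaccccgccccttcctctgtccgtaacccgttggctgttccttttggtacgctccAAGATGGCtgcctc

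Of the first set, MRPL49 held none of the ETS, YY1 and NRF1 letters, while the other 5 held ETS letters. Counted from the start site, these began at -5 in MRPL52, -8 in MRPL33, -11 in MRPL40, -39 in MRPL47, and -44 and -21 in MRPL20. MRPL52, MRPL47 and MRPL20 also held YY1 letters. Of the second set, MRPL30 held ETS and NRF1 letters at -145 and -116, MRPS27 held YY1 letters after its start, MRPL50 held YY1 letters that run past the printed stretch, and MRPL19 held none of the 3 motifs. In XRCC1-KO cells the median log2 fold change was 0.13 over the 28 genes with ETS letters and 0.12 over the 39 without, and 0.09 over the 19 with YY1 letters and 0.12 over the 48 without. For NRF1 letters it was 0.09 over 7 with and 0.12 over 60 without, for SP1 letters 0.12 over 41 with and 0.10 over 26 without, and for TATA letters 0.18 over 2 with and 0.12 over 65 without. In APE1-KO cells the medians with and without ETS letters were 0.01 and -0.01.

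In XRCC1-KO cells most mitochondrial ribosomal protein genes stood slightly above Control-KO, and none of them passed the test. The median log2 fold change of the 76 genes was 0.12, or 1.08-fold, against a median of 0.00 over all 13052 genes; with a trend of fold change on transcript length and GC content removed, the members' median was 0.07. Above 0 lay 66 of the 76 genes, where the share over all genes was 49.7%. No member had an adjusted p under 0.05 in the authors' deposited table for XRCC1-KO, and 0% of all genes did; the smallest adjusted p of a member was 0.76. At an unadjusted p under 0.05, 8 members were above Control-KO and 0 below, against 3.26% and 2.7% of all genes, or 5.96% in either direction. The members' median recovered standard error per single gene was 0.10, which is close to the size of their median fold change. It is not an error of the median over the 76 genes, which was not tested.

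In APE1-KO cells the same genes were centred on 0. Their median log2 fold change was 0.00, 39 of 76 lay above 0 (49.5% of all genes), and 66 of 76 were within 0.1 of 0. Over all genes the quartiles were -0.06 and 0.06, so most genes lay within 0.1 of 0 as well. In the authors' deposited table for APE1-KO no member had an adjusted p under 0.05 (0.00766% of all genes did, which is APEX1 alone), and 0 members had an unadjusted p under 0.05 (0.774% of all genes above and 0.674% below Control-KO, 1.45% in either direction). With so small a share over all genes, a count of 0 among 76 members says little. Member intervals in that table reached from -0.57 to 1.16 at their widest, both for MRPL30, so a change of that size in MRPL30 was not detectable.

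**Figure D1:**
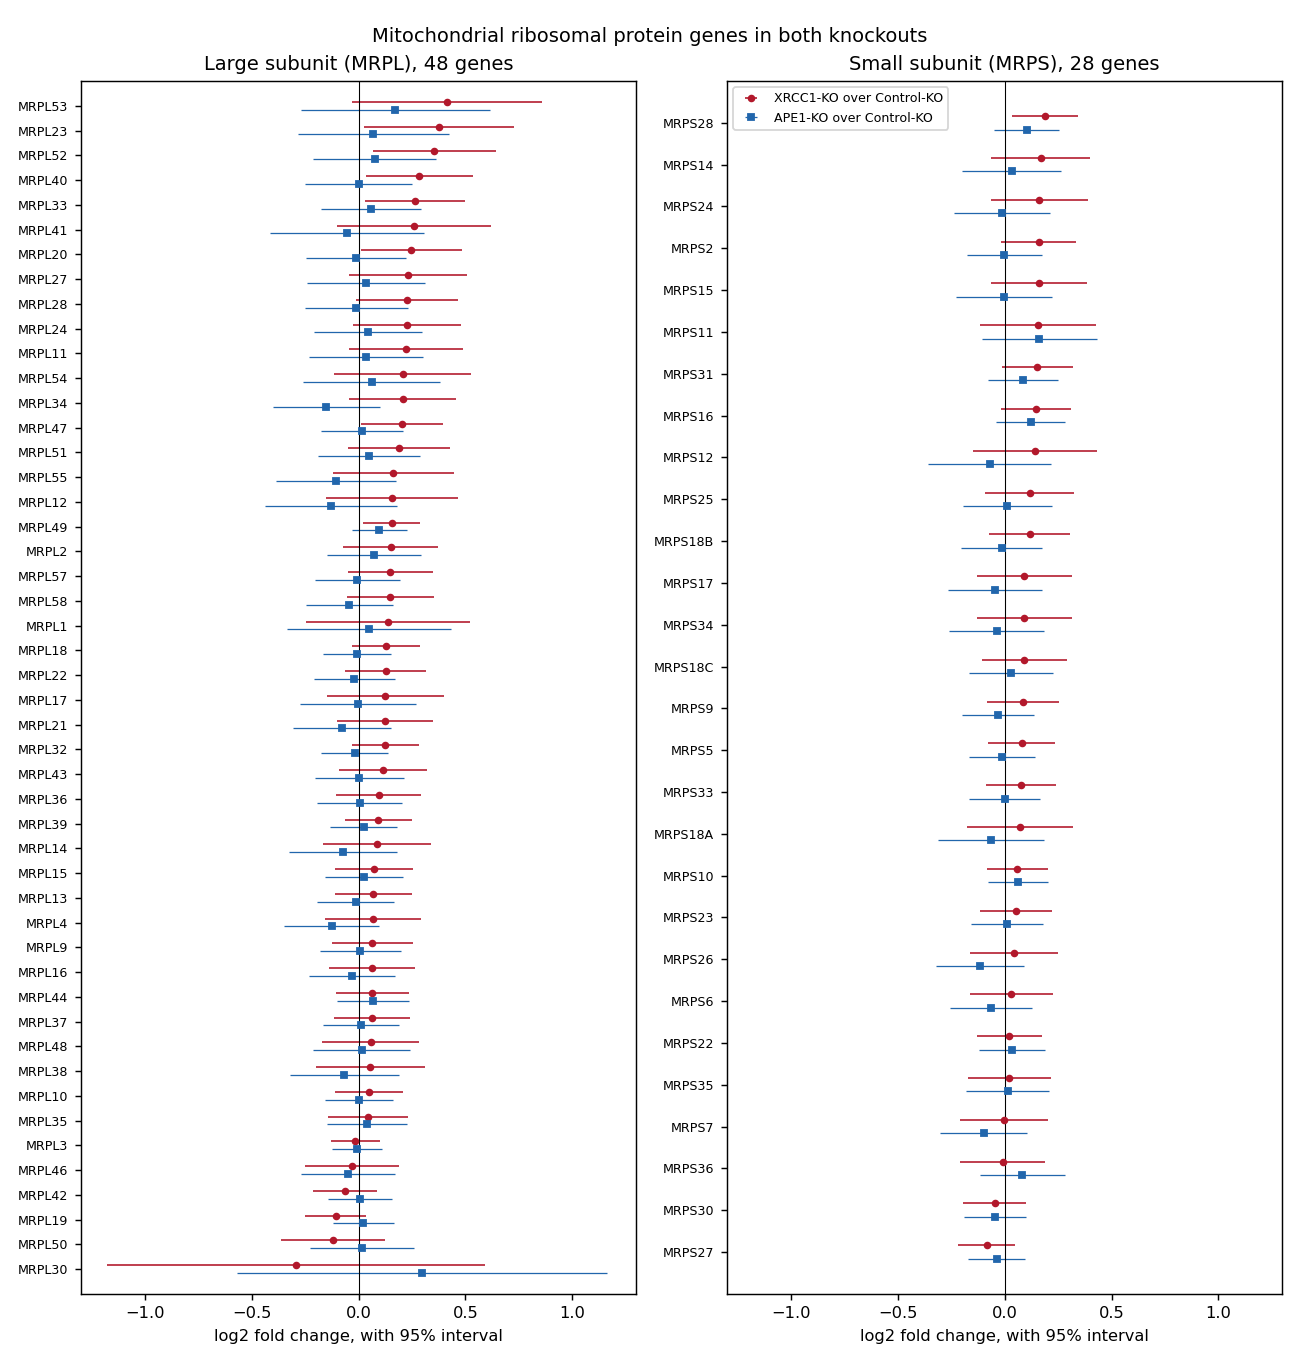
Log2 fold change of each gene over Control-KO, with the 95% interval recovered from the deposited F statistic, for XRCC1-KO (red circles) and APE1-KO (blue squares), 3 libraries per group. Genes are sorted by their XRCC1-KO value: 66 of 76 red points lie right of 0, 8 red intervals exclude 0, and no blue interval does.

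The large subunit had a higher median and a wider spread over genes than the small subunit in XRCC1-KO cells. For the 48 MRPL genes the median log2 fold change was 0.13 (1.09-fold, quartiles 0.06 and 0.21), and for the 28 MRPS genes it was 0.09 (1.06-fold, quartiles 0.04 and 0.15). Above 0 lay 42 of the 48 MRPL genes and 24 of the 28 MRPS genes. With the length and GC trend removed, the medians were 0.08 for MRPL and 0.06 for MRPS. The SD over genes was 0.13 for MRPL and 0.07 for MRPS. Median recovered standard errors per gene were similar in size to these SDs, at 0.11 for MRPL and 0.09 for MRPS. Beyond 0.2 in either direction lay 15 members, all of them MRPL genes. Over all genes 23.7% did, so values beyond 0.2 were no more frequent among the members than in the table as a whole. Of the 8 genes with an unadjusted p under 0.05, 7 were MRPL (14.6% of 48) and 1 was MRPS (3.57% of 28). Over all genes 3.26% lay above Control-KO at this threshold, so the MRPS count was near the background. Members share libraries and are not replicates, so the gap between the subunits was not tested. In APE1-KO cells the medians were 0.00 for both subunits, with 27 of 48 MRPL genes and 12 of 28 MRPS genes above 0.

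**Figure D2:**
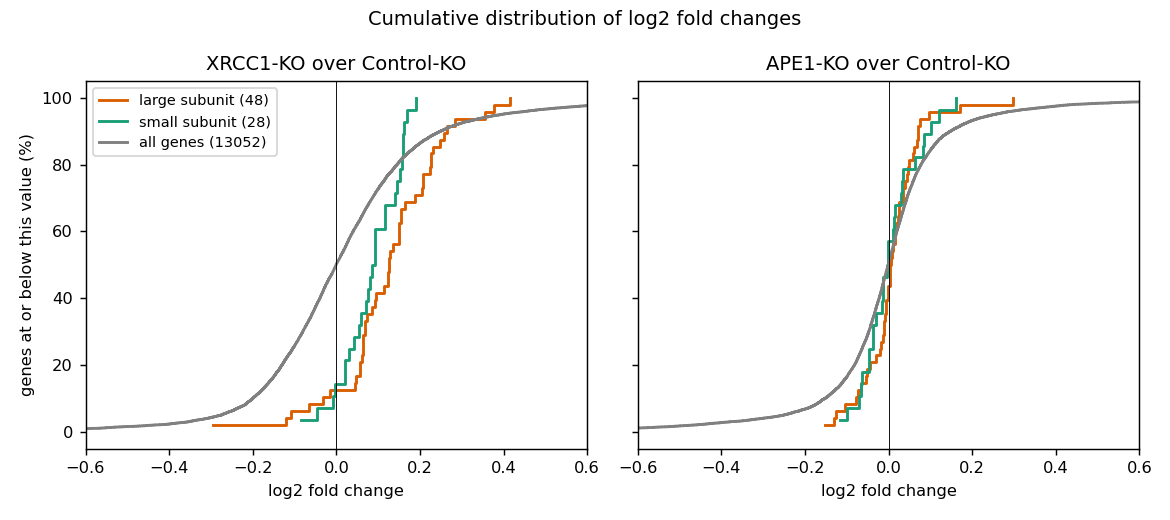
Share of genes (percent) at or below each log2 fold change, for large-subunit genes, small-subunit genes and all 13052 genes, in XRCC1-KO over Control-KO (left) and APE1-KO over Control-KO (right). Both subunit curves lie right of the curve for all genes over most of their range on the left (medians 0.13, 0.09 and 0.00) and near it on the right; values beyond 0.6 are not drawn.

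Among the large-subunit genes, MRPL53 and MRPL23 had the highest values. MRPL53, a component of the stalk region with no bacterial counterpart, stood at 0.42 in the authors' deposited table for XRCC1-KO (1.33-fold higher, 95% interval -0.03 to 0.86, p = 0.0647) and at 0.17 in their table for APE1-KO (p = 0.421). Its gene overlaps CCDC142 on the same strand, so reads of both may be hard to separate. MRPL23, a protein at the exit of the polypeptide tunnel, stood at 0.38 in the authors' deposited table for XRCC1-KO (1.3-fold, interval 0.02 to 0.73, p = 0.0377) and at 0.07 in their table for APE1-KO (p = 0.68). Both intervals are wide, and only that of MRPL23 excludes 0.

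MRPL52, a mitochondria-specific protein of the large subunit, had the smallest p of the 76 genes in the authors' deposited table for XRCC1-KO, at 0.36 (1.28-fold, interval 0.07 to 0.64, p = 0.0186), and it stood at 0.08 in their table for APE1-KO. The gene lies at hg19 chromosome 14, 23299088 to 23304246, on the plus strand. MRPL40, also mitochondria-specific, stood at 0.28 (interval 0.03 to 0.53, p = 0.0292) in the authors' deposited table for XRCC1-KO and at 0.00 in their table for APE1-KO (interval -0.25 to 0.25). MRPL49 stood at 0.15 (interval 0.02 to 0.29, p = 0.0244) in the authors' deposited table for XRCC1-KO and at 0.10 (interval -0.03 to 0.23) in their table for APE1-KO; the gene overlaps FAU and SYVN1 on the opposite strand and has 2 named pseudogene copies. MRPL40 overlaps C22orf39 and HIRA on the opposite strand. Of these 3 genes, MRPL49 has the narrowest intervals and the values closest to each other in the knockouts.

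Of the MRPL genes with a bacterial counterpart, MRPL33 stood at 0.26 (interval 0.03 to 0.50, p = 0.0285), MRPL20 at 0.25 (interval 0.01 to 0.48, p = 0.0411) and MRPL47 at 0.20 (interval 0.01 to 0.40, p = 0.038) in the authors' deposited table for XRCC1-KO. MRPL33 is a very small protein near the exit site for transfer RNA, MRPL20 binds the ribosomal RNA early in assembly, and MRPL47 sits beside the tunnel exit. In the authors' deposited table for APE1-KO these 3 genes stood at 0.06, -0.01 and 0.02. MRPL33 overlaps BABAM2 on the same strand, and MRPL20 has an antisense partner, MRPL20-AS1, that is listed as well, and MRPL47 overlaps ACTL6A on the opposite strand; the library kit keeps strand, per the labels. Just past the threshold lay MRPL28, another protein with a bacterial counterpart, at 0.23 (p = 0.0618) in the authors' deposited table for XRCC1-KO.

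By position in the ribosome, both groups examined lay wholly above 0 in XRCC1-KO cells. The 5 stalk genes (MRPL10, MRPL11, MRPL12, MRPL53 and MRPL54), which recruit translation factors, had a median of 0.21 and ranged from 0.05 for MRPL10 to 0.42 for MRPL53. The 6 measured genes around the tunnel exit (MRPL22, MRPL23, MRPL24, MRPL39, MRPL44 and MRPL47), where nascent chains leave towards the inner membrane, had a median of 0.17 and ranged from 0.06 to 0.38. With the length and GC trend removed, the medians were 0.07 for the stalk and 0.18 for the tunnel exit, so the order of these groups turned round. MRPL12, the stalk protein that is also reported to bind the mitochondrial RNA polymerase, stood at 0.16 (interval -0.15 to 0.46) in the authors' deposited table for XRCC1-KO and at -0.13 (interval -0.44 to 0.18) in their table for APE1-KO. MRPL12 overlaps SLC25A10 on the same strand. As 42 of 48 MRPL genes lay above 0, a small group wholly above 0 is not particular to these positions.

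The lowest large-subunit values in XRCC1-KO cells belonged to MRPL30, MRPL50, MRPL19 and MRPL42. MRPL30, the member of lowest abundance (mean log2 CPM 3.41), stood at -0.29 (interval -1.18 to 0.59, p = 0.49) in the authors' deposited table for XRCC1-KO and at 0.30 (interval -0.57 to 1.16, p = 0.476) in their table for APE1-KO. Its recovered standard error of 0.42 was the widest of the 76 genes, and it overlaps an unnamed gene on the same strand. MRPL19 stood at -0.11 (interval -0.25 to 0.04, p = 0.13) in the authors' deposited table for XRCC1-KO, MRPL50 at -0.12 (p = 0.306) and MRPL42 at -0.06 (p = 0.375). MRPL3, the most abundant member by mean log2 CPM (7.55) and a core protein near the peptidyl transferase centre, stood at -0.01 (interval -0.13 to 0.10) in their table for XRCC1-KO and -0.01 (interval -0.12 to 0.11) in their table for APE1-KO. Its recovered standard errors were the narrowest of the 76 genes in both comparisons.

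Among the 28 small-subunit genes, 1 (3.57%) had an unadjusted p under 0.05 in XRCC1-KO cells. This share was near the 3.26% of all genes that lay above Control-KO at that threshold. The gene was MRPS28. The authors' deposited table for XRCC1-KO gives it 0.19 (1.14-fold, interval 0.04 to 0.34, p = 0.0191), and it stood at 0.10 (interval -0.05 to 0.26, p = 0.18) in their table for APE1-KO; its gene overlaps TPD52 on the same strand. MRPS14, MRPS24 and MRPS2, proteins with bacterial counterparts, followed at 0.17 (p = 0.143), 0.16 (p = 0.15) and 0.16 (p = 0.071) in the authors' deposited table for XRCC1-KO. MRPS12, the protein of the decoding site, stood at 0.14 (interval -0.15 to 0.43) there and at -0.07 in the authors' deposited table for APE1-KO. The lowest small-subunit value was that of MRPS27, a protein with pentatricopeptide repeats, at -0.09 (interval -0.22 to 0.05, p = 0.193) in the authors' deposited table for XRCC1-KO and -0.04 in their table for APE1-KO.

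Symbol and place in the ribosome differ for a few genes. MRPS30 and MRPS18A are built into the large subunit of the human mitochondrial ribosome in spite of their names, and MRPS36, which RefSeq now calls KGD4, is a component of the 2-oxoglutarate dehydrogenase complex. In the authors' deposited table for XRCC1-KO MRPS30 stood at -0.05 (interval -0.19 to 0.10), MRPS18A at 0.07 (interval -0.18 to 0.32) and MRPS36 at -0.01 (interval -0.21 to 0.19). The other paralogs of MRPS18A, all named after the same bacterial protein, stood at 0.12 for MRPS18B (interval -0.08 to 0.31) and 0.09 for MRPS18C (interval -0.11 to 0.29) in the same deposited table, and at -0.01 and 0.03 in their table for APE1-KO. The 3 paralogs thus had overlapping intervals in XRCC1-KO cells.

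Another 5 subunits carry other symbols. AURKAIP1 stood at 0.26 (interval -0.03 to 0.55, p = 0.0716), GADD45GIP1 at 0.24 (p = 0.0843), CHCHD1 at 0.11 (p = 0.328), the GTP-binding protein DAP3 at 0.03 (p = 0.675) and the pentatricopeptide repeat protein PTCD3 at -0.19 (interval -0.44 to 0.06, p = 0.126) in the authors' deposited table for XRCC1-KO. In the authors' deposited table for APE1-KO they ranged from -0.06 for PTCD3 to 0.02 for CHCHD1. With these genes sorted by their place in the structure, the XRCC1-KO medians were 0.12 over 51 large-subunit genes and 0.09 over 29 small-subunit genes.

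Proteins with and without a counterpart in the bacterial ribosome were also set side by side, with the subunits taken by symbol. Of the MRPS18 paralogs, MRPS18C was counted as the counterpart and MRPS18A and MRPS18B as mitochondria-specific, as in the structural nomenclature, and MRPS36 was left out. In XRCC1-KO cells the 45 genes with a bacterial counterpart had a median of 0.13, with 41 above 0, and the 30 without one had a median of 0.08, with 25 above 0. Among MRPL genes the medians were 0.13 over 30 with and 0.13 over 18 without a counterpart. Among MRPS genes they were 0.14 over 15 with and 0.06 over 12 without, and the 12 include MRPS30 and MRPS18A of the large subunit. With the length and GC trend removed, the medians were 0.09 with and 0.05 without a counterpart over both subunits, 0.08 and 0.08 among MRPL genes, and 0.09 and 0.01 among MRPS genes. In APE1-KO cells the 4 groups had medians between -0.01 and 0.01.

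The difference between the knockouts, XRCC1-KO minus APE1-KO, does not contain the Control-KO libraries. Its median over the 76 genes was 0.11 on the log2 scale, against 0.01 over all genes; it was 0.14 for MRPL and 0.09 for MRPS genes. With the length and GC trend removed, these medians were 0.07, 0.09 and 0.07. Over the 76 members the difference had a Spearman's rho of 0.61 with GC content, given as a description. Over all 12825 genes with a known length this rho was 0.39, so the relation is not particular to the members. XRCC1-KO was the higher of the knockouts for 64 of the 76 genes (51.5% of all genes). With standard errors recovered from the deposited F statistics and Benjamini-Hochberg adjustment over all genes, no member had an adjusted p under 0.05 (0.00766% of all genes did); the smallest member value was 0.9995. At an unadjusted p under 0.05, 1 member was higher in XRCC1-KO and 0 lower, against 0.467% and 0.268% of all genes, or 0.736% in either direction. These standard errors count the control libraries in both comparisons, which is conservative. With a covariance as equal groups around 1 shared control would have, 3 members were higher and 0 lower, against 2.77% and 2.71% of all genes, and again none passed after adjustment.

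The member with the largest positive difference was MRPL34, a small basic protein of the large subunit with a bacterial counterpart. It stood at 0.21 (interval -0.04 to 0.46, p = 0.0985) in the authors' deposited table for XRCC1-KO and at -0.15 (interval -0.40 to 0.10, p = 0.22) in their table for APE1-KO, a difference of 0.36 (interval 0.0028 to 0.71, p = 0.0484). MRPL41 followed with a difference of 0.31 (interval -0.20 to 0.82), MRPL23 with 0.31 (interval -0.19 to 0.80) and MRPL12 with 0.29 (interval -0.15 to 0.72). The most negative differences were those of MRPL30 (-0.59, interval -1.83 to 0.65), MRPL50 (-0.14), MRPL19 (-0.13, interval -0.33 to 0.07) and MRPS36 (-0.09). MRPL34 overlaps ABHD8 on the opposite strand. Among these 8 genes, the interval of MRPL34 alone excludes 0.

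The XRCC1-KO and APE1-KO tables share their control libraries. The highest APE1-KO values after MRPL30 and MRPL53 were those of MRPS11 at 0.16 (p = 0.219), MRPS16, which overlaps DNAJC9 on the same strand, at 0.12 (p = 0.134) and MRPS28 at 0.10 in the authors' deposited table. The lowest after MRPL34 were those of MRPL12 at -0.13, MRPL4 at -0.13 (p = 0.247) and MRPS26 at -0.12 (p = 0.256) in the authors' deposited table. The smallest unadjusted p of a member in that table was 0.132, for MRPL49.

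The members share short transcripts, and in XRCC1-KO cells the fold changes of all genes varied with length. Their median transcript length in GENCODE 29 was 1030 bases, against 1844.5 bases over all genes, and it was 909.5 bases for MRPL and 1278.5 bases for MRPS genes. In 10 bins of equal size by length, 69 members fell into the shorter 5 bins and 7 into the longer 5. Across genes of those bins the median XRCC1-KO log2 fold change was between 0.01 and 0.06 in the shorter 5 and reached -0.09 in the longest. From the shortest bin to the fifth, the 12, 18, 15, 16 and 8 members had medians of 0.18, 0.13, 0.09, 0.12 and 0.06. All genes of these bins had 0.05, 0.06, 0.05, 0.04 and 0.01. Over the 76 members, which share libraries and are not independent, XRCC1-KO values had a Spearman's rho of -0.33 with length and 0.42 with GC content. Over all 12825 genes with a known length these were -0.26 and 0.29. For MRPL genes the rho with length was -0.41 and for MRPS genes 0.03.

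**Figure D3:**
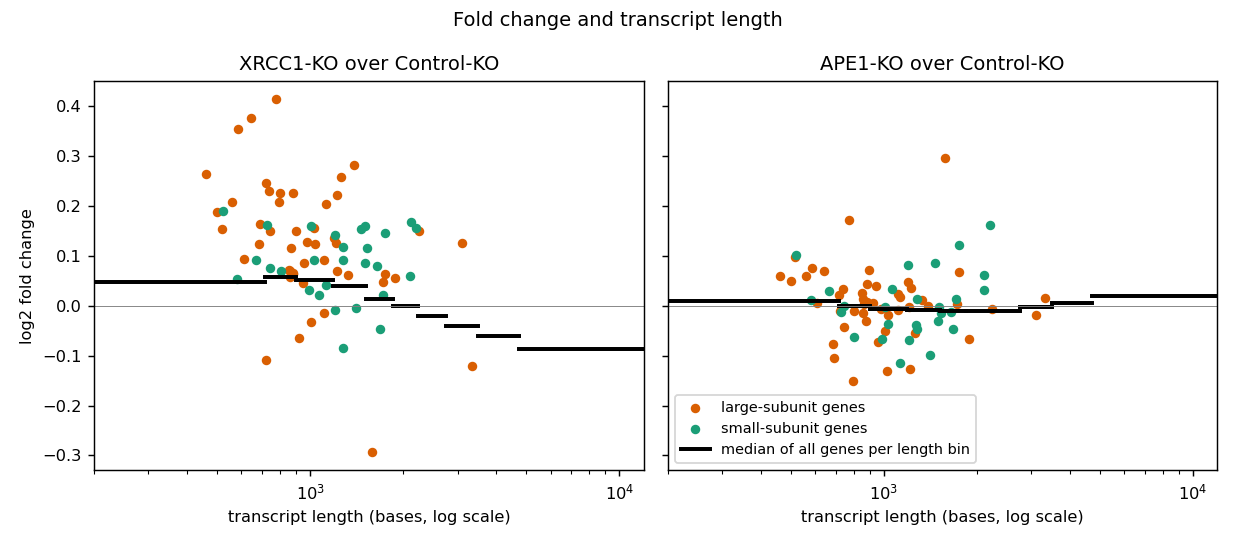
Log2 fold change of each gene against its GENCODE 29 transcript length (bases, log scale), for large-subunit (orange) and small-subunit (green) genes, in XRCC1-KO over Control-KO (left) and APE1-KO over Control-KO (right). Black bars give the median of all genes in each of 10 length bins and decline on the left to -0.09 in the longest bin; most members sit above the bar of their bin on the left.

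With a trend on length and GC content fitted over all genes and taken away, the XRCC1-KO medians were 0.08 for MRPL and 0.06 for MRPS genes, against -0.01 over all genes. Above 0 then lay 62 of the 76 members, against 6172 of the 12825 genes tested. At an unadjusted p under 0.05, 4 of the 76 members were above Control-KO and 0 below, against 2.35% and 3.01% of those 12825 genes. Counted in either direction, the share over those genes was 5.36%, and the members' count was near that share. These 4 were MRPL33 and MRPL47, which were among the 8 before, and MRPL22 and MRPS31. The smallest adjusted p of a member was 0.922 (Benjamini-Hochberg). The part of length and GC content in the deposited values was otherwise not tested.

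The genes also differ in level, for which a single mean over all libraries is deposited. Per kilobase of transcript, mean log2 CPM was highest for MRPL3 (7.40) and MRPL51 (7.31) and lowest for MRPL30 (2.75), MRPS14 (3.37) and MRPL50 (3.37). As GENCODE transcript models stand in for the isoforms of these cells, this order is approximate. Without scaling for length, mean log2 CPM ranged from 3.41 to 7.55, so all 76 genes lay above a mean log2 CPM of 1. The members are spread over 21 chromosomes, with at most 8 on one. On hg19, 10 members overlap another listed gene on the same strand and 24 one on the opposite strand, and 32 have a named pseudogene copy in GENCODE 29, so their reads may be shared. In addition, 17 of 76 (22.4%) have a listed gene that starts within 1000 bases on the other strand and runs the other way, against 8.58% of all genes; MRPL46 and MRPS11 form such a pair, with starts 34 bases apart, and stood at -0.03 and 0.16 in the authors' deposited table for XRCC1-KO. MRPL36 faces NDUFS6, and MRPL47 faces NDUFB5, both genes of complex I. In the authors' deposited table for XRCC1-KO, MRPL36 stood at 0.09 and NDUFS6 at 0.35 (p = 0.00302), while MRPL47 stood at 0.20 and NDUFB5 at 0.06 (p = 0.641), so the order within the pairs differed.

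Factors that build or serve the mitochondrial ribosome had medians near 0 in both knockouts. For assembly and ribosomal RNA modification, 27 genes were measured (MRM1 and RCC1L were not found), and their XRCC1-KO median was 0.01, with 14 above 0; 1 of the 27 had an unadjusted p under 0.05 above Control-KO and 0 below, which is near the shares over all genes (3.26% and 2.7%). That gene was SLIRP, which binds mitochondrial messenger RNA together with LRPPRC, at 0.27 (interval 0.02 to 0.52, p = 0.0382) in the authors' deposited table for XRCC1-KO. LRPPRC itself stood at -0.12 (interval -0.33 to 0.10) in that table, the ribosomal RNA methyltransferase gene MRM3 at 0.20 and the GTPase gene GTPBP10 at -0.14. In APE1-KO cells the assembly median was -0.01, and MTERF4, a partner of the methyltransferase NSUN4, stood at 0.23 (p = 0.0349) in the authors' deposited table for APE1-KO. The 17 mitochondrial translation factors had medians of 0.02 in XRCC1-KO and 0.02 in APE1-KO cells. In either knockout 0 of them had an unadjusted p under 0.05. Over all genes 5.96% did for XRCC1-KO and 1.45% for APE1-KO, so a count of 0 among 17 genes says little. The elongation factor gene TSFM stood at 0.15 (p = 0.129) in the authors' deposited table for XRCC1-KO. No gene of these lists passed after adjustment over all genes in either knockout.

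Other gene groups of short transcripts or of the respiratory chain had larger medians in XRCC1-KO cells. The 79 cytosolic ribosomal protein genes had a median of 0.18 with 79 above 0 and an SD over genes of 0.05. The 37 NDUF genes, taken by symbol and mostly encoding subunits of complex I, had a median of 0.19 with 36 above 0. They include NDUFA4 (0.18), which is counted as a subunit of complex IV. The 13 protein genes of mitochondrial DNA, which mitochondrial ribosomes translate, had a median of 0.42 with all 13 above 0. With the length and GC trend removed, the medians were 0.11 for cytosolic ribosomal proteins and 0.13 for NDUF genes. Genes of mitochondrial DNA were left out of that trend, so the 0.42 has no such counterpart. In APE1-KO cells these 3 lists had medians of 0.02, 0.03 and 0.05. Medians of lists are given as descriptions, and no difference between lists was tested.

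**Figure D4:**
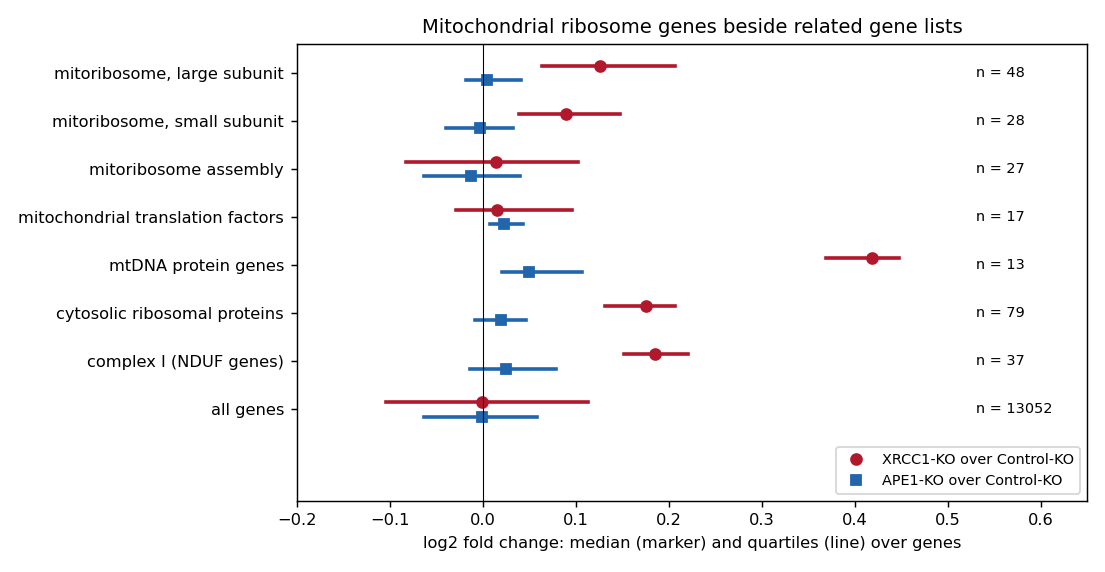
Median log2 fold change over the genes of a list (marker) with its quartiles (line), for XRCC1-KO over Control-KO (red circles) and APE1-KO over Control-KO (blue squares). The XRCC1-KO medians of the mitochondrial ribosome (0.13 and 0.09) lie above those of assembly and translation factors (0.01 and 0.02). The medians of cytosolic ribosomal proteins (0.18) and of the NDUF genes, labelled complex I (0.19), are higher.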

How the data were processed

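Poly(A) RNA of 9 MCF10A libraries was made into stranded libraries, per the labels' protocols. The submitters' processing notes name edgeR, Salmon 1.4.0, Trim Galore and the build hg19; how genes were filtered, normalized and modelled is not given in the sources used here. The authors deposited, per gene and knockout, a log2 fold change over Control-KO, a mean log2 CPM (the same in both tables), an F statistic (used here as a score without unit), an adjusted and an unadjusted p-value, and a −log10 p. No value carries a replicate SD, since values of single libraries are not analysed here.

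From these values a standard error was computed by dividing the absolute log2 fold change by the root of F. For F below 0.01 (2 members for XRCC1-KO, 13 for APE1-KO), the other comparison's error was used. Where F exceeded 3, F and p gave the degrees of freedom, with a median of 15.2, used for all other genes. Printed 95% intervals use Student's t quantiles. Calls are the authors' deposited edgeR F tests, adjusted over all 13052 genes with the Benjamini-Hochberg method. The difference between the knockouts was tested with these standard errors and no covariance, which is conservative; its code was tested on simulated data. All tests are two-sided. Python 3.11.15, pandas 2.3.3 and scipy 1.17.1 were used.

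Transcript length and GC content are medians over the protein-coding transcripts of a gene in GENCODE 29, matched by Ensembl ID for 98.4% of genes; no GRCh38 coordinate was used with hg19 ones. Members, gene lists and tests were chosen with earlier results of these data known, so no list was tested. Named genes are the members with the smallest p-values, the highest and lowest fold changes, levels and differences, the MRPS18 paralogs, and subunits whose name and place differ; a few others (such as MRPL12, MRPS12 and MRPL28) were named for their role or place beside a threshold after their values were seen. Alternatives were an abundance minimum, removal of the length and GC trend, subunits by structure, other thresholds, a weighted mean and the covariance of the comparisons.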

Additional observations from a re-analysis of the deposited data

How the results depend on the processing

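With an abundance minimum of mean log2 CPM 1, no count or median changed, as all 76 genes lie above it. The count of adjusted calls was 0 in every comparison under every alternative run. The 8 members with an unadjusted p under 0.05 in XRCC1-KO became 4 with the length and GC trend removed, and 0 at an unadjusted p under 0.01. The trend removal also changed the sign of 6 of the 76 XRCC1-KO values. Of the 4 members, all above Control-KO, 2 were among the 8. Their count was near the 5.36% of all genes tested that way with an unadjusted p under 0.05 in either direction. Above Control-KO the share over those genes was 2.35%. For the difference between the knockouts, 1 such member became 0 with the trend removed, 0 at p under 0.01 and 3 with the covariance of the shared controls. The XRCC1-KO medians ranged from 0.08 to 0.13 for MRPL and from 0.06 to 0.09 for MRPS genes over the alternatives. The APE1-KO median of MRPS genes was -0.0026, and the weighted mean was 0.0074, so its sign has no weight. No paired analysis was possible because the deposited tables hold no values per library, and for the same reason no library could be left out. A median recovered standard error of 0.10 per gene limits what could be detected in single genes.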
